A study of Homo sapiens with 6 samples.

Results

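The translation initiation and elongation factors were examined in LX-2 cells, an immortalised human line derived from hepatic stellate cells, the collagen-producing pericytes of the liver. Members were the protein-coding genes of GENCODE release 44 whose symbol begins with EIF or EEF followed by a digit, with the EIF2AK kinases and EEF1E1 left out. Of 66 such genes, 64 had a row among the 32750 genes of the deposited table, and 62 of the 64 passed the filter on low counts and were tested. EIF5AL1 and EEF1E1-BLOC1S5 did not pass it, and EIF4E1B and EEF1AKMT4-ECE2 were not analysed here. By symbol the 64 fell into 11 EIF2 genes, 14 EIF3 genes, 15 EIF4 genes, 11 other EIF genes (EIF1, EIF5 and EIF6 with their relatives) and 13 EEF genes.

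Initiation factors bring the initiator tRNA, the small ribosomal subunit and the capped mRNA together and select the start codon, after which elongation factors deliver aminoacyl-tRNAs and move the ribosome along. Initiation through the cap-binding protein eIF4E is held back by the 4E-binding proteins, which the kinase mTORC1 phosphorylates. Delivery of the initiator tRNA by eIF2 is slowed when eIF2 is phosphorylated and blocks its exchange factor eIF2B. mTORC1 is activated on the lysosomal surface next to the vacuolar proton pump, of which ATP6AP1 is an accessory subunit.

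The study holds 6 poly(A) RNA libraries of wild-type LX-2 cells, all transfected with an siRNA. In 3 control libraries the siRNA was non-targeting, and in the other 3 it is given as directed against ATP6AP1, and the submitters state the question as which transcripts change upon ATP6AP1 depletion. The submitters describe the libraries as independent biological replicates of the line. No label used here states the siRNA sequence, its dose or the time after transfection, and p-values measure the spread between these libraries. A library held 15644464 to 19656533 counts. ATP6AP1 mRNA went against the label: it stood at 116, 117 and 129 CPM (reads scaled for depth with edgeR's TMM factors) in the control libraries and at 144, 146 and 140 CPM in the others, a log2 fold change of 0.25 (edgeR adjusted p = 0.00425). The second group is therefore called the libraries labelled ATP6AP1 siRNA throughout, and every direction below is that of these labels. Whether the labels are in place cannot be told from these libraries, and every direction would turn if they were exchanged. Of the 10 stellate cell markers examined, 7 were above 1 CPM, DCN and DES were under 1 CPM, and LRAT was not analysed here. The summed level of the 9 markers with a row was 5589 to 6057 CPM in the control and 3204 to 3610 CPM in the labelled libraries. All 7 tested markers were lowered (edgeR adjusted p under 0.05), beside 26.6% of all genes tested. That count uses the TMM factors and is not given with library size alone. Most markers of other liver cells were low: 3 of 4 hepatocyte genes (ALB among them), 4 of 5 macrophage genes (PTPRC among them), all 4 endothelial genes and 2 of 4 cholangiocyte genes (EPCAM among them) were under 1 CPM, and none was at 0 in all libraries. Their summed levels in the control and then the labelled libraries were 7.54 to 8.72 and 4.59 to 5.91 CPM for hepatocytes, 57.3 to 69.6 and 55.4 to 60.4 CPM for macrophages, 1.06 to 1.56 and 0.752 to 1.21 CPM for endothelium, and 26.4 to 32.2 and 29.5 to 38.1 CPM for cholangiocytes. Above 1 CPM were CD68 (61.2 CPM on average in the control libraries), SOX9 (24.4), SERPINA1 (8.05) and KRT7 (4.78). CD68 thus stood above the stellate markers COL1A2 (42.5) and ACTA2 (25). VIM alone, at 4679 CPM in the control, made up most of the stellate sum. The part of these marker differences in the results below was not tested, and in bulk RNA fewer transcripts per cell and fewer cells of a type cannot be told apart.

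Across all members, 35 of the 62 tested passed edgeR's quasi-likelihood test at an adjusted p under 0.05, with 24 lowered and 11 raised in the libraries labelled ATP6AP1 siRNA. Their 56.5% called is close to the 53.3% called over all 15372 genes tested, so being called did not set the members apart. The direction was uneven: 38.7% of members were lowered against 26.6% of all genes, and 17.7% were raised against 26.7%. CPM values did not overlap between the groups for 40 of the 62 members (64.5%, against 59.5% of all genes). All members are protein-coding, and of the 12972 protein-coding genes tested 57.1% were called, 28.8% raised and 28.3% lowered. For 62.8% of those genes the groups did not overlap, close to the share of the members. The median log2 fold change of the members was -0.13, and that of all genes was -0.0043.

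The count in each direction depended on the scaling between libraries. Scaling by library size alone moved the median log2 fold change of all genes by 0.14, and 19 members (30.6%) were then raised and 13 (21%) lowered, beside 36.5% raised and 17.8% lowered over all genes. Lowered genes made up 68.6% of the called members with the TMM factors. The shift was nearly the same for every gene, so neither scaling alters the distance between members. Of the 34 called members whose values are shown, 7 raised and 12 lowered genes passed the test with the same sign under all 16 alternatives, with EIF4EBP3 left out because it passed the filter on low counts through the labelled group alone. The 7 were EIF1, EIF1B, EIF5, EIF2B2, EIF3A, EIF4A3 and EIF4EBP2, and the 12 were EIF4E, EIF4A1, EIF4EBP1, EIF3E, EIF3F, EIF3H, EIF2A, EIF5A, EEF1A1, EEF1A2, EEF1G and EEF2K.

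**Figure D1:**
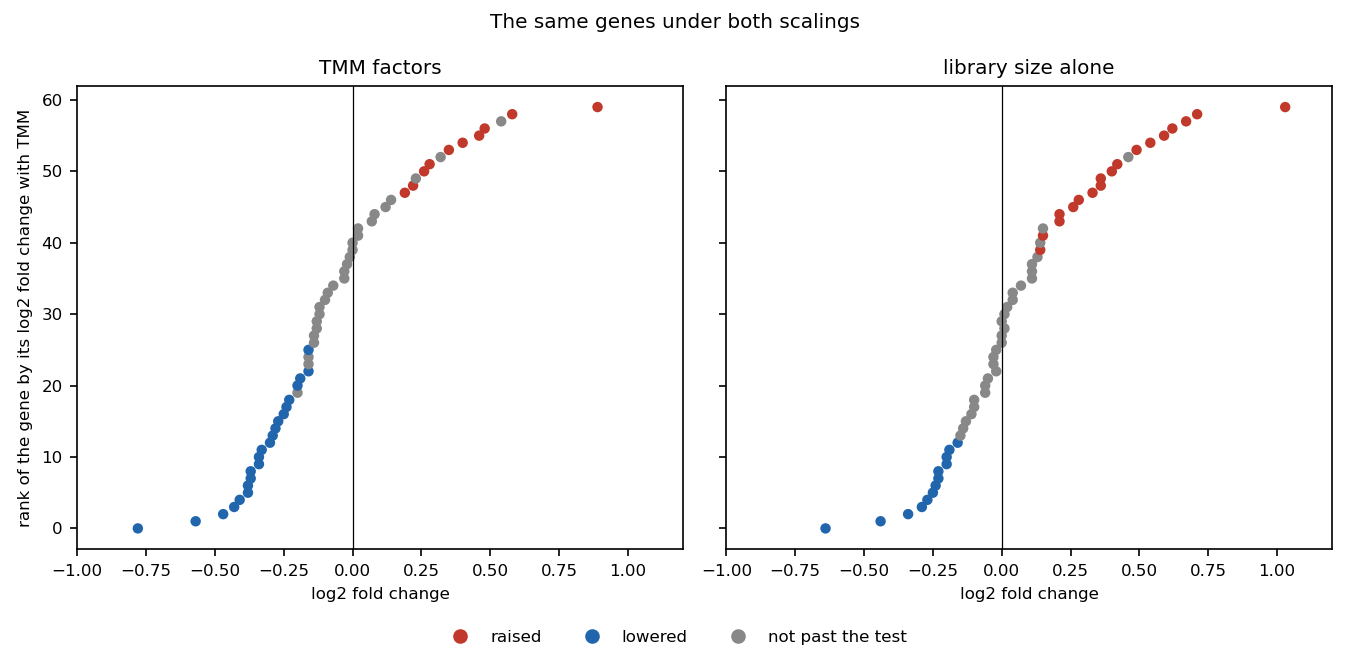
Log2 fold changes (x axis) of 60 tested members in the same order under TMM factors (left) and library size alone (right), coloured by the edgeR call; EIF4EBP3 and EIF1AY are not drawn. The whole set shifts to the right by about 0.14, which turns 12 members that were not past the test from below 0 to above it.

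**Figure D2:**
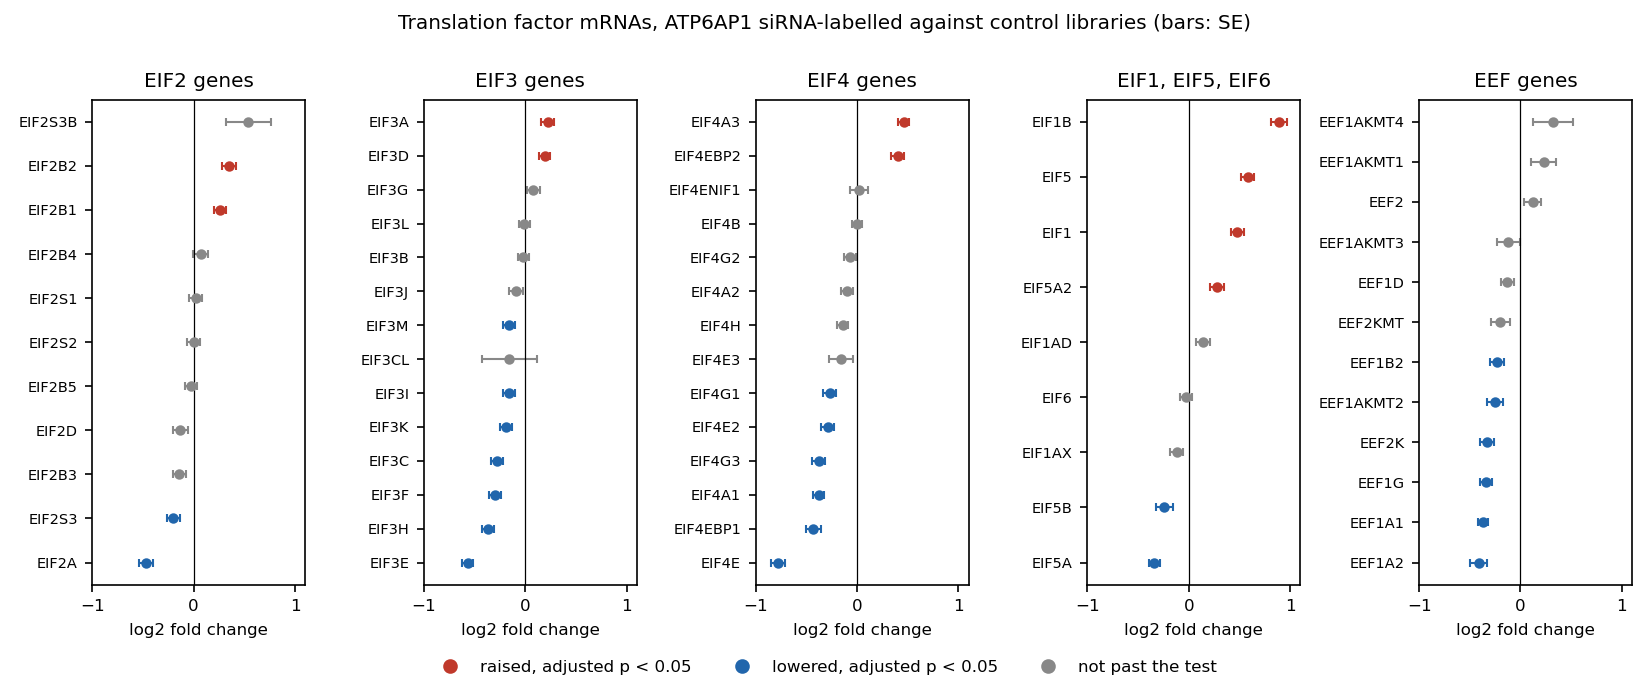
Log2 fold change of each tested member (x axis; ATP6AP1 siRNA-labelled against control libraries) with its standard error, in 5 panels by gene group, coloured by the edgeR call. Raised genes reach 0.89 (EIF1B) and lowered genes -0.78 (EIF4E); EIF4EBP3, at 3.60, lies beyond the axis and EIF1AY is not drawn.

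The counts of the gene groups are given as descriptions, beside 26.7% raised and 26.6% lowered over all genes. The EEF group had 0 raised and 6 lowered genes (50%) of 12 tested (median log2 fold change -0.21). The EIF3 group had 2 raised (14.3%) and 7 lowered (50%) of 14 (-0.16), and the EIF4 group 3 raised (20%) and 6 lowered (40%) of 15 (-0.14). The EIF2 group had 2 raised (18.2%) and 2 lowered (18.2%) of 11 (0.00), and the other EIF genes 4 raised (40%) and 3 lowered (30%) of 10 (0.05). With library size alone these counts became 2 raised and 4 lowered for EEF, 3 and 3 for EIF3, 4 and 4 for EIF4, 5 and 1 for EIF2, and 5 and 1 for the other EIF genes. Over all genes 36.5% were raised and 17.8% lowered with that scaling.

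The alpha and beta subunits of eIF2, the GTPase that carries the initiator tRNA, had log2 fold changes near 0. EIF2S1, which encodes the alpha subunit phosphorylated by the stress kinases, stood at 327, 338 and 318 CPM in the control and at 308, 330 and 356 CPM in the labelled libraries (log2 fold change 0.02, edgeR adjusted p = 0.847), which was 0.15 with library size alone (edgeR adjusted p = 0.046) and -0.08 with either span trend removed. EIF2S2, the beta subunit, read 330, 326 and 304 against 297, 317 and 347 CPM (0.00; -0.10 with either span trend removed). The control range lay inside the labelled range for EIF2S1, and the 95% interval of its fold ran from 0.921 to 1.11. EIF2S3B, a retrocopy of the gamma subunit, held 1.54 to 2.63 CPM and did not pass the test (log2 fold change 0.54, edgeR adjusted p = 0.0586), but passed with library size alone (0.67) and with the canonical span trend removed (0.57). EIF2S3, the gamma subunit encoded on chromosome X, went from 228, 222 and 215 to 181, 191 and 207 CPM without overlap (log2 fold change -0.20, edgeR adjusted p = 0.016). That call was lost when control replicate 1 or 2 or labelled replicate 1 or 2 was left out and with library size alone (highest adjusted p = 0.411), while the log2 fold change stayed between -0.30 and -0.06.

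EIF2A, a separate protein that can deliver initiator tRNA without GTP and is no subunit of eIF2, showed the largest fall of the EIF2 symbols. EIF2A (ENSG00000144895, GRCh38 chromosome 3, 150546678 to 150586016) stood at 99.6, 99.3 and 90.8 CPM in the control and at 66.5, 67.6 and 74.4 CPM in the labelled libraries. All labelled values were below all control values, a fold of 1.39 lower (95% interval 1.26 to 1.54; edgeR adjusted p = 6.6e-05). EIF2D, which acts in non-canonical initiation and recycling, did not pass the test (log2 fold change -0.13, edgeR adjusted p = 0.171; 0.01 with library size alone), but passed with either span trend removed (-0.20 and -0.24).

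Of the 5 subunits of eIF2B, which recharges eIF2 with GTP, 2 were raised and none of the 5 was lowered. That is 40% raised, beside 26.7% raised and 26.6% lowered over all genes. With library size alone 3 subunits of eIF2B were raised (60%), beside 36.5% of all genes. EIF2B2, the beta subunit of its regulatory core, stood at 49.4, 48.1 and 48.2 CPM in the control and at 60.1, 59.1 and 66.5 CPM in the labelled libraries (log2 fold change 0.35 ± 0.0678 SE, edgeR adjusted p = 0.000751). EIF2B1, the alpha subunit, read 47.1, 47.6 and 47.3 against 55.7, 56.8 and 57.4 CPM (0.26, edgeR adjusted p = 0.00314). Both genes separated the groups completely, but the EIF2B1 call was lost with either gene span trend removed (highest adjusted p = 0.0686). Antisense genes overlap 23.6% of the EIF2B2 and 15.6% of the EIF2B1 exon bases, and their reads cannot be told apart without strand. Other members have such overlap too, with the highest shares in EEF1D (34%) and EEF2KMT (31.4%). EIF2B5, the catalytic subunit, read 67.8, 69.6 and 68.9 against 68.9, 67.7 and 65.8 CPM (log2 fold change -0.03; 0.11 with library size alone), with a 95% interval of the fold from 0.898 to 1.07. EIF2B3 and EIF2B4 did not pass the test, though EIF2B4 did with library size alone (0.21).

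Among members past the test, the factors that select the start codon held the largest rises (EIF4EBP3, described below, is set apart). eIF1 and eIF1A open the small subunit for scanning, eIF1 leaves when a start codon is met, and eIF5 triggers GTP hydrolysis by eIF2. EIF1 (ENSG00000173812, chromosome 17, 41688885 to 41692668) stood at 619, 610 and 542 CPM in the control and at 802, 841 and 833 CPM in the labelled libraries. EIF1B (ENSG00000114784, chromosome 3, 40309707 to 40312424), its paralog, read 31, 31.2 and 36 against 55.3, 62.5 and 64.3 CPM. EIF5 (ENSG00000100664, chromosome 14, 103333544 to 103345025) read 321, 344 and 339 against 461, 516 and 519 CPM. In all 3 genes every labelled library was above every control library. The folds were 1.4 for EIF1 (95% interval 1.28 to 1.53), 1.85 for EIF1B (1.64 to 2.1) and 1.49 for EIF5 (1.36 to 1.64), with edgeR adjusted p of 2.37e-05, 1.8e-06 and 5.53e-06. They held under every alternative, with log2 fold changes of 0.44 to 0.62, 0.85 to 1.03 and 0.47 to 0.71.

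EIF1AX, which encodes eIF1A, did not follow them, with 230, 234 and 229 against 196, 218 and 225 CPM (log2 fold change -0.12, edgeR adjusted p = 0.129; 0.02 with library size alone). It passed as lowered with either span trend removed (-0.24 and -0.23) and without labelled replicate 3 (-0.16). EIF5B, the GTPase that joins the large subunit, read 201, 176 and 191 against 142, 157 and 182 CPM, and the groups overlapped. Its log2 fold change was -0.24 (edgeR adjusted p = 0.0281), and the call was lost without control replicate 1 or 3 or labelled replicate 1 or 2 and with library size alone (highest adjusted p = 0.314). EIF6, which keeps the large subunit from joining early, read 292, 293 and 264 against 271, 289 and 273 CPM, and its log2 fold change of -0.03 became 0.11 with library size alone. EIF1AY, the Y-linked copy of EIF1AX, is counted among the lowered genes and its values are not shown.

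The bases around the start codon of these mRNAs are shown because the EIF1 mRNA is known to be read from a start codon in poor context and the EIF5 mRNA to carry upstream reading frames, through which both limit their own synthesis. In each line the annotated start codon is in capitals, with the 9 bases before it and the 6 bases after it in lower case, read 5′ to 3′ from the GENCODE canonical transcript.
EIF1: tcgtatcgtATGtccgct
EIF1B: tagtatcgcATGtccact
EIF5: taagccaaaATGtctgtc
EIF1AX: gccaccgccATGcccaag
EIF5B: tgacaagcaATGgggaag
With the A of the start codon counted as position 1, EIF1 and EIF1B had neither a purine at position -3 nor a G at position 4, the bases that favour recognition. EIF5 and EIF1AX had the purine without the G, and EIF5B had both. Neither base was present in 3 of 63 members with a context (EIF1, EIF1B and EIF3B, 4.76%), against 749 of 12811 tested genes (5.85%). The EIF5 leader of 441 bases held 3 upstream ATG triplets, and 9 of the 63 members (14.3%) held at least 1, against 41.8% of tested genes. These letters are properties of the annotated transcripts, not measurements of translation.

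eIF3 is the largest initiation factor, a scaffold of many subunits that holds the small ribosomal subunit and the mRNA. Of 9 core genes tested, with the EIF3C copy EIF3CL counted, 6 were lowered and 1 raised (66.7% and 11.1%, against 26.6% and 26.7% of all genes), and with library size alone 3 were lowered and 1 raised. EIF3E (ENSG00000104408, chromosome 8, 108162787 to 108443496), subunit e, stood at 216, 210 and 205 CPM in the control and at 139, 141 and 144 CPM in the labelled libraries. The groups lay far apart, a fold of 1.49 lower (95% interval 1.37 to 1.61; edgeR adjusted p = 2.05e-06). EIF3E spans 281 kb as annotated and 47.5 kb in its canonical transcript, and of the 1298 longest protein-coding genes by span 59.6% were lowered and 7.09% raised in these libraries. With each library's trend on whole-gene span removed its log2 fold change went from -0.57 to -0.17 (edgeR adjusted p = 0.017), and with the trend on canonical transcript span it was -0.61.

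EIF3H and EIF3F, the subunits of the core with an MPN domain, fell by less than EIF3E in the main comparison. The same order held with the canonical span trend removed, but both fell by more than EIF3E with the whole-gene span trend removed. EIF3H read 132, 123 and 122 against 93.8, 99.1 and 99.1 CPM (log2 fold change -0.37, edgeR adjusted p = 0.000216), and -0.22 with the whole-gene span trend removed from its 125 kb. EIF3F read 170, 176 and 162 against 140, 138 and 135 CPM (log2 fold change -0.30, edgeR adjusted p = 0.00065), and -0.38 with the whole-gene span trend removed. Neither gene overlapped between groups. EIF3C, another core subunit, read 176, 184 and 194 against 157, 153 and 146 CPM (log2 fold change -0.28, edgeR adjusted p = 0.00153; 0.0581 with library size alone), and EIF3CL read 1.59, 2.68 and 2.43 against 1.76, 2.66 and 1.61 CPM. These copies share 98.8% of the 50-base windows of the EIF3C canonical transcript, so how the counting divided reads between them leaves both uncertain.

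EIF3A, the subunit around which the core is built, was the raised gene of the core. It stood at 254, 264 and 287 CPM in the control and at 298, 306 and 334 CPM in the labelled libraries (log2 fold change 0.22, edgeR adjusted p = 0.012), with the closest values 287 and 298 CPM. EIF3D, a cap-binding subunit outside the core, also rose (log2 fold change 0.19, edgeR adjusted p = 0.012), a call that was lost without labelled replicate 2 and with either span trend removed (highest adjusted p = 0.357). EIF3K, EIF3M and EIF3I had log2 fold changes of -0.19, -0.16 and -0.16. With library size alone these were -0.05, -0.02 and -0.02, and none of the 3 passed (lowest edgeR adjusted p = 0.473). All 3 also lost their calls when control replicate 1, control replicate 2 or labelled replicate 2 was left out, which left 4 lowered EIF3 genes, and EIF3M lost it also without control replicate 3 or labelled replicate 1. EIF3I, the most abundant EIF3 mRNA per kilobase of canonical transcript, read 353, 336 and 318 against 300, 303 and 299 CPM. EIF3K, the next, read 105, 105 and 97.1 against 86.8, 90.2 and 92.6 CPM. By union of exons EIF3I, at 35.3 CPM per kb in the control, stood behind EIF3L (64.5), EIF3D (45.7), EIF3A (37.8), EIF3J (37.3) and EIF3K (36.7). EIF3B, EIF3G, EIF3J, EIF3L and EIF3CL did not pass the test, though EIF3G passed as raised with library size alone (0.21) and EIF3J as lowered with either span trend removed (-0.19 and -0.20) or without labelled replicate 3 (-0.16).

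The cap-binding protein showed the largest fall of all tested members. EIF4E (ENSG00000151247, chromosome 4, 98879276 to 98929133) stood at 156, 160 and 145 CPM in the control and at 86.4, 84.5 and 97.9 CPM in the labelled libraries. The lowest control value was well above the highest labelled value, and the level was 1.71-fold lower (95% interval 1.54 to 1.9; edgeR adjusted p = 1.33e-06). The log2 fold change of -0.78 ranged from -0.85 to -0.64 over all alternatives, and 20.9% of the windows of EIF4E recur in its pseudogenes and other genes. EIF4E2, a cap-binding relative that represses translation, was also lowered (log2 fold change -0.29, edgeR adjusted p = 0.0016; 0.0528 with library size alone). EIF4E3 did not pass the test (-0.16, edgeR adjusted p = 0.263).

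EIF4G1, the scaffold that joins eIF4E, eIF4A and the poly(A)-binding protein, was lowered more weakly. It read 489, 524 and 572 CPM in the control and 456, 436 and 423 CPM in the labelled libraries, without overlap (log2 fold change -0.27, edgeR adjusted p = 0.00337; 0.102 with library size alone). EIF4G3, its paralog, had a log2 fold change of -0.38 (edgeR adjusted p = 0.000307). EIF4G3 spans 371 kb, the longest of the members, and with the span trend removed its sign turned to 0.11 (edgeR adjusted p = 0.15) on whole-gene span and to 0.16 (edgeR adjusted p = 0.0482) on canonical transcript span. EIF4G2, a homolog that does not bind eIF4E, did not pass the test (log2 fold change -0.07; 0.07 with library size alone), but passed as lowered with either span trend removed (-0.17 and -0.18).

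The 3 DEAD-box helicases named eIF4A went in different directions. EIF4A1 (ENSG00000161960, chromosome 17, 7572824 to 7579006), the main helicase of cap-dependent initiation, stood at 1209, 1152 and 1172 CPM in the control and at 855, 930 and 924 CPM in the labelled libraries. EIF4A3 (ENSG00000141543, chromosome 17, 80134369 to 80147151), which despite its name is a core of the exon junction complex, read 154, 159 and 157 against 211, 219 and 215 CPM. EIF4A2, the close relative of EIF4A1, read 460, 431 and 409 against 386, 399 and 426 CPM. The groups were far apart for EIF4A1 and EIF4A3 and overlapped for EIF4A2. EIF4A1 was 1.3-fold lower (95% interval 1.2 to 1.42; edgeR adjusted p = 6.87e-05), EIF4A3 was 1.37-fold higher (1.27 to 1.48; edgeR adjusted p = 1.29e-05), and EIF4A2 did not pass (log2 fold change -0.10; 0.04 with library size alone). All windows of EIF4A1 recur in other annotated transcripts, of which the readthrough SENP3-EIF4A1 was itself lowered, from 9.84 to 7.05 CPM on average. EIF4H, a cofactor of the helicase, read 569, 621 and 587 against 538, 526 and 552 CPM and just missed the threshold (edgeR adjusted p = 0.0508; log2 fold change -0.14, 0.00 with library size alone). It passed as lowered in DESeq2, in limma-voom, without labelled replicate 3 and with either span trend removed (-0.25 and -0.24). EIF4B, the other cofactor, had a log2 fold change of 0.00 (0.14 with library size alone).

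The 4E-binding proteins, which sequester eIF4E, split by gene. EIF4EBP1 (ENSG00000187840, chromosome 8, 38030534 to 38060365) stood at 146, 139 and 131 CPM in the control and at 112, 101 and 95.6 CPM in the labelled libraries. EIF4EBP2 (ENSG00000148730, chromosome 10, 70404145 to 70428618) read 58.1, 60.4 and 63 against 79.6, 80.2 and 80.1 CPM. Each gene separated the groups, in opposite directions. EIF4EBP1 was 1.35-fold lower (95% interval 1.21 to 1.5; edgeR adjusted p = 0.000194) and EIF4EBP2 was 1.32-fold higher (1.21 to 1.45; edgeR adjusted p = 0.000108), and these directions held under library size alone. EIF4EBP3 was barely detected, with 3 counts over the control and 40 over the labelled libraries, a ratio of 13.5 per normalised depth (exact 95% interval 4.3 to 68.3, counting error only). It passed the filter through the labelled group alone and shares 71.6% of its windows with the readthrough ANKHD1-EIF4EBP3, which rose from 30 to 44 CPM on average (log2 fold change 0.56, edgeR adjusted p = 0.000807), so its value is uncertain. EIF4ENIF1, which carries eIF4E into the nucleus, did not pass the test (log2 fold change 0.02).

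**Figure D3:**
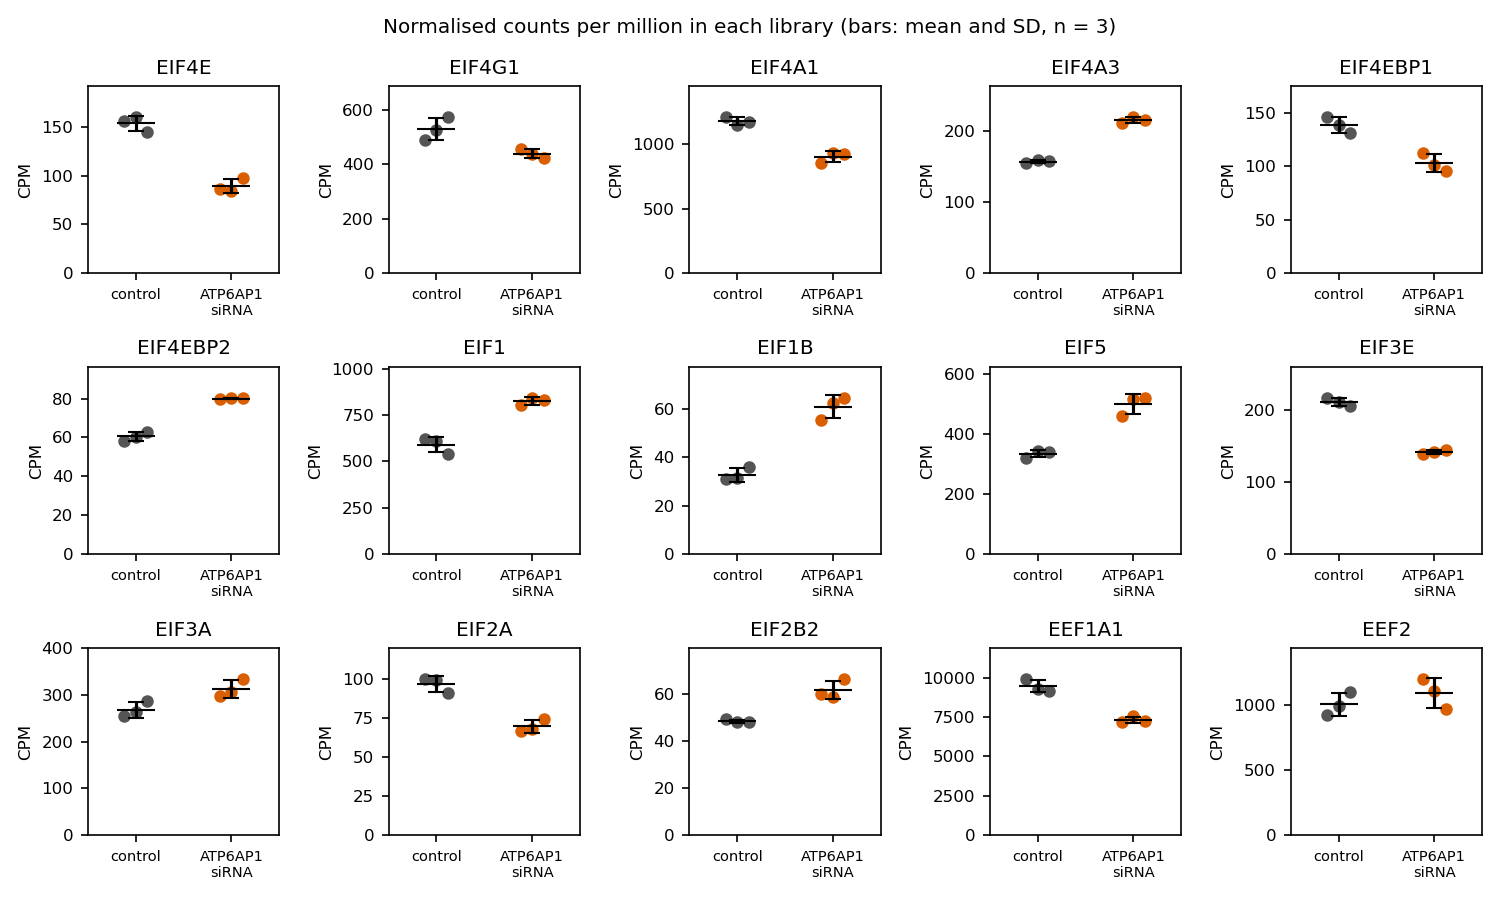
TMM-normalised CPM (y axis, from 0) of 15 members in each of the 3 control (grey) and 3 ATP6AP1 siRNA-labelled (orange) libraries, with the mean and SD of each group. EIF4E, EIF4EBP1, EIF4A1, EIF3E, EIF2A and EEF1A1 are lower and EIF4A3, EIF4EBP2, EIF1, EIF1B and EIF5 higher in all labelled libraries, while EEF2 overlaps.

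Elongation factors were lowered or did not pass the test. EEF1A1 (ENSG00000156508, chromosome 6, 73489308 to 73525587), the GTPase that brings aminoacyl-tRNA to the ribosome, stood at 9921, 9302 and 9191 CPM in the control and at 7200, 7555 and 7234 CPM in the labelled libraries. EEF1A2, its paralog typical of neurons and muscle, read 70.2, 74.1 and 76.7 against 61.6, 56.6 and 48.2 CPM. EEF1G, the gamma subunit of the eEF1B complex that recharges eEF1A with GTP, read 1850, 1756 and 1647 against 1404, 1374 and 1367 CPM. None of the 3 genes overlapped between groups. EEF1A1 was 1.29-fold lower (95% interval 1.2 to 1.4; edgeR adjusted p = 6.1e-05), EEF1A2 1.33-fold lower (1.17 to 1.51; edgeR adjusted p = 0.00113) and EEF1G 1.27-fold lower (1.17 to 1.38; edgeR adjusted p = 0.000209). Of their 50-base windows, 37.2% for EEF1A1 and 98.3% for EEF1G recur in pseudogenes or overlapping genes, and 0 for EEF1A2. EEF1B2, another subunit of the exchange complex, had a log2 fold change of -0.23 (edgeR adjusted p = 0.0108), and its call was lost without control replicate 1 or 2 and with library size alone (highest adjusted p = 0.249). EEF1D, the remaining exchange subunit, did not pass the test (log2 fold change -0.13; 0.00 with library size alone), but passed as lowered with either span trend removed (-0.25) and without labelled replicate 1 (-0.19).

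EEF2, the translocase, was not lower, and the kinase that inhibits it was. EEF2 stood at 925, 997 and 1100 CPM in the control and at 1201, 1107 and 973 CPM in the labelled libraries (log2 fold change 0.12, edgeR adjusted p = 0.233), with a 95% interval of the fold from 0.962 to 1.22. The groups overlapped, and the gene passed the test without labelled replicate 3 and with library size alone, where the log2 fold change was 0.20 and 0.26. EEF2K, which phosphorylates and inactivates eEF2, read 40, 37 and 40.6 against 30.9, 30.5 and 32.1 CPM. Its fall was 1.26-fold (95% interval 1.13 to 1.4; edgeR adjusted p = 0.00165) and held under every alternative. Of the 5 lysine methyltransferases that modify eEF1A or eEF2, EEF1AKMT2 passed the test (log2 fold change -0.25, edgeR adjusted p = 0.018). That call was lost without control replicate 1 or 2 or labelled replicate 2, in DESeq2 and with library size alone (highest adjusted p = 0.245). EEF2KMT passed as lowered with either span trend removed (-0.31), and EEF1AKMT1 passed as raised with library size alone (0.36, edgeR adjusted p = 0.0239).

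EIF5A and EIF5A2, which relieve stalled ribosomes once a lysine is converted to hypusine, moved in opposite directions. EIF5A (ENSG00000132507, chromosome 17, 7306999 to 7312463) stood at 751, 794 and 770 CPM in the control and at 612, 594 and 621 CPM in the labelled libraries (log2 fold change -0.34, edgeR adjusted p = 0.00012). EIF5A2 read 47.7, 46.9 and 48.6 against 53.9, 60.1 and 60.2 CPM (log2 fold change 0.28, edgeR adjusted p = 0.00332), and its call was lost with either span trend removed (highest adjusted p = 0.0627). Both separated the groups. EIF5A shares 38.7% of its windows with its retrocopies, of which EIF5AL1 held at most 1.01 CPM.

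Members were ordered by level in the control libraries as CPM per kilobase of the Ensembl canonical transcript. EEF1A1 was highest at 2697 ± 112 CPM per kb (SD, n = 3), followed by EEF1G at 1211 ± 70.3 and EIF4A1 at 670 ± 16.5 CPM per kb. EIF5A (611 ± 17.2) and EEF1B2 (600 ± 55.7) did not differ beyond their spread, and neither did EIF6 (265 ± 15.2) and EIF1 (252 ± 18), which followed EEF2 at 319 ± 27.9 CPM per kb. With the union of all annotated exons as the length EEF1A1 and EEF1G still led, at 941 and 663 CPM per kb, and EIF4A1 fell to 227, behind EIF5A, EEF1B2 and EEF2. The 64 members together took 2.35, 2.26 and 2.24% of all counts in the control and 2.17, 2.21 and 2.18% in the labelled libraries. Without EEF1A1 the share of counts was 1.36 to 1.4% in the control and 1.41 to 1.42% in the labelled libraries, but with the TMM factors the direction was the opposite, with a summed 14320 to 14585 CPM in the control and 13397 to 13675 CPM in the labelled libraries. EEF1A1 alone took 0.875 to 0.949% in the control and 0.753 to 0.789% in the labelled libraries.

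**Figure D4:**
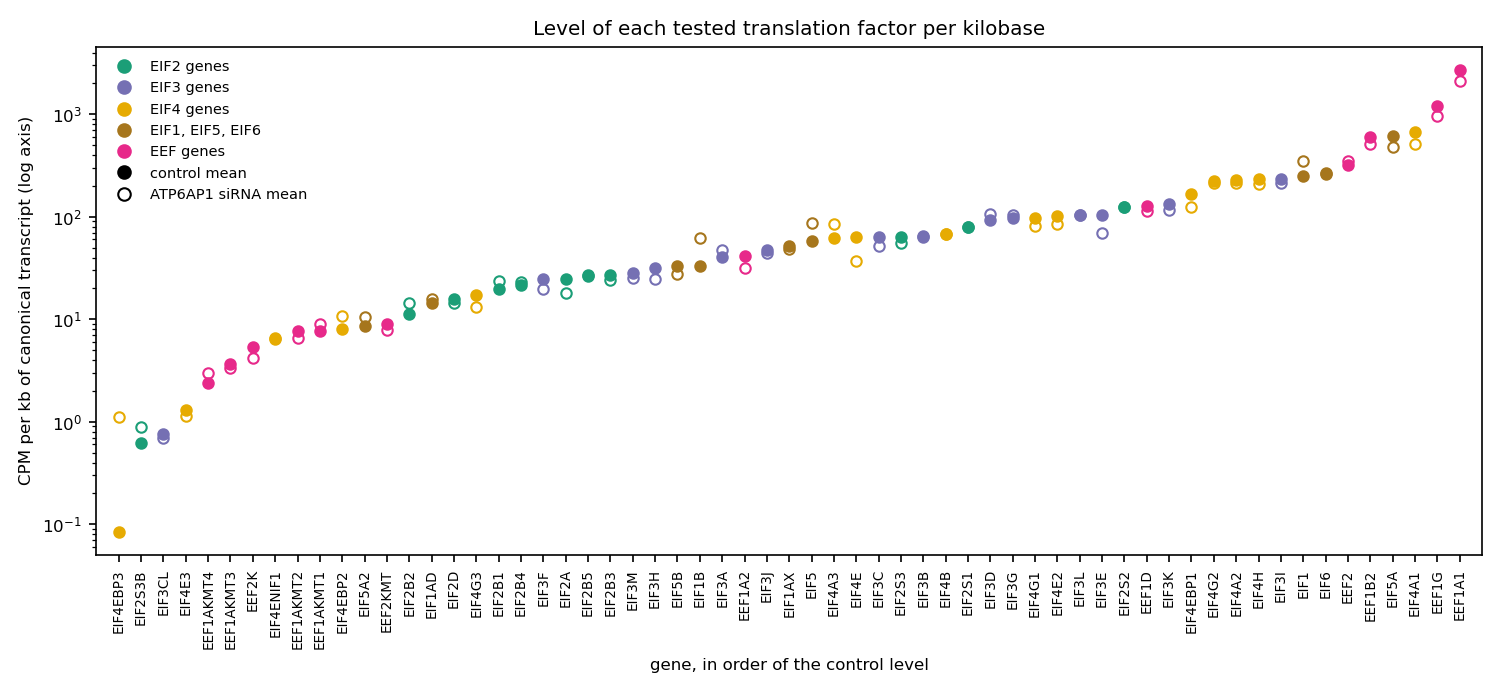
Mean level of 61 tested members in CPM per kilobase of canonical transcript (log axis) in the control (filled) and ATP6AP1 siRNA-labelled (open) libraries, in order of the control level. Levels run from EIF4EBP3, with 3 counts in the control, to EEF1A1 at 2697 CPM per kb; EIF1AY is not drawn.

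Many mRNAs of the translation machinery begin with a terminal oligopyrimidine (TOP) tract, a C followed by pyrimidines at the very start of the transcript, through which LARP1 and mTORC1 act on their translation. The RefSeq promoter table (GRCh38.p14) held 51 of the 64 members. A C and at least 4 further C or T at a listed start, on the gene's strand, was found in 13 of the 51 (25.5%), against 819 of 11168 tested genes (7.33%). The 13 were EEF1A1, EEF1B2, EEF2, EIF2A, EIF2D, EIF2S3, EIF2S3B, EIF3D, EIF3F, EIF3K, EIF3M, EIF4A2 and EIF4B. The starts below are those of genes with different calls, with 30 bases before the start and 15 from it on, and with the tract in capitals.
EEF1A1, lowered, chr6:73521018-73521062 minus strand: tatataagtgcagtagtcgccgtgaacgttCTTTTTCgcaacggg
EIF3F, lowered, chr11:7987307-7987351 plus strand: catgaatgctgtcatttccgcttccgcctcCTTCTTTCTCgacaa
EIF2A, lowered, chr3:150546757-150546801 plus strand: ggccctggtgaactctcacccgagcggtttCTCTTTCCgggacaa
EEF2, not past the test, chr19:3985449-3985493 minus strand: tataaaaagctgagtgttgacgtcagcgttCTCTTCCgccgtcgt
EIF3D, raised, chr22:36529152-36529196 minus strand: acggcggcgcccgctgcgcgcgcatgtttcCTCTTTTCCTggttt
Of the 13 members with such a start, 7 were lowered, 1 was raised and 5 did not pass the test, and of the other 38 in the table, 13 were lowered, 9 raised, 14 did not pass and 2 were not tested. With library size alone the 13 members held 3 lowered genes (EEF1A1, EIF2A and EIF3F) and 4 raised ones (EIF3D, EEF2, EIF2S3B and EIF4B), and the other 38 held 6 lowered and 12 raised. The median log2 fold change was -0.16 with and -0.08 without the tract. Over all tested genes with the tract 37.4% were lowered and 21.9% raised (median -0.11), against 27.6% lowered and 28.6% raised (-0.00) without it. The motif CACGTG, which reads the same on both strands, was in the 300-base window of 13 members (25.5%) and of 12.3% of tested genes. A match describes these letters only.

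Ratios between related members within a library do not depend on the scaling between libraries. The 16 ratios were chosen after the values were seen and are given without a test, as ratios of CPM per kilobase. EIF4EBP2 over EIF4EBP1 was 0.044, 0.0481 and 0.053 in the control and 0.0785, 0.0877 and 0.0925 in the labelled libraries, 1.78-fold higher. EIF4A3 over EIF4A1 was 0.0889, 0.0963 and 0.0934 against 0.172, 0.164 and 0.162, 1.79-fold higher. The ratios EIF5 over EIF5B, EIF3A over EIF3E and EIF5A2 over EIF5A were 1.77, 1.73 and 1.54-fold higher. No ratio was corrected for the trend on gene span. With the whole-gene span trend removed, the log2 fold change was -0.17 instead of -0.57 for EIF3E and 0.16 instead of 0.22 for EIF3A. With the canonical span trend removed these were -0.61 and 0.18. The calls of EIF5B and EIF5A2 were lost under some alternatives, as given above. EIF4E over EIF4G1 was 0.713, 0.68 and 0.562 against 0.422, 0.432 and 0.515, 1.43-fold lower. In 15 of the 16 ratios the groups did not overlap, and EEF1A2 over EEF1A1 was the ratio that did, at 0.0154 ± 0.00128 and 0.015 ± 0.00188 (SD, n = 3). EIF1B rose beyond EIF1, with a ratio of 0.119 to 0.157 in the control and 0.163 to 0.183 in the labelled libraries.

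**Figure D5:**
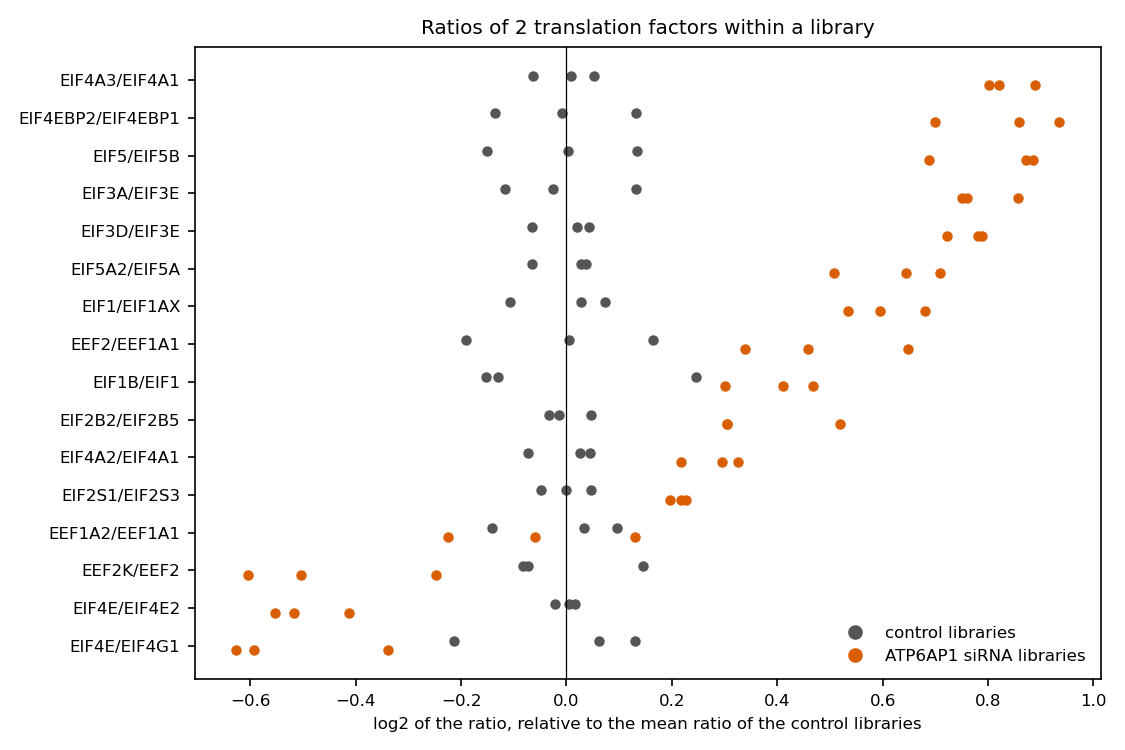
Each of 16 ratios between members within a library, as log2 relative to the mean of the control libraries (x axis), for the control (grey) and ATP6AP1 siRNA-labelled (orange) libraries. The groups overlap for EEF1A2 over EEF1A1 and for no other ratio drawn.

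The genes that act on these factors were counted by list, to be read against 53.3% called, 26.7% raised and 26.6% lowered over all genes. The lists were chosen with earlier results of these data known, and their counts use the TMM factors. Counts with library size alone, which moved the median log2 fold change of all genes by 0.14, are not given for the lists. Of 11 genes for the kinases and phosphatases of eIF2, 3 were raised and 3 lowered (54.5% called, close to all genes). PPP1R15A, the stress-induced subunit that directs eIF2 dephosphorylation, read 124, 133 and 133 against 343, 322 and 295 CPM, without overlap (log2 fold change 1.30, edgeR adjusted p = 1.43e-08). PPP1R15B, its constitutive relative, read 60.4, 58.1 and 55.1 against 108, 107 and 103 CPM (log2 fold change 0.87, edgeR adjusted p = 1.82e-07). EIF2AK4, the kinase GCN2 that senses uncharged tRNA, was lowered (log2 fold change -0.55, edgeR adjusted p = 8.71e-06), and EIF2AK1, EIF2AK2 and EIF2AK3 did not pass the test.

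Of 15 tested genes of mTORC1 and its S6 kinase arm, 9 were raised and 4 lowered (86.7% called, against 53.3% of all genes). LARP1, the TOP-binding repressor, read 207, 211 and 220 against 132, 131 and 131 CPM (log2 fold change -0.69, edgeR adjusted p = 4.22e-07). RPTOR, the substrate-binding subunit of mTORC1, was lowered (-0.55, edgeR adjusted p = 0.000483), and TSC1, a subunit of its inhibitor, was raised (0.52, edgeR adjusted p = 6.64e-05). No gene of these lists, LARP1 and EIF2AK4 included, is given with a span trend removed, and 59.6% of the 1298 longest protein-coding genes were lowered in these libraries. The termination and recycling list had 0 raised and 5 lowered of 8, with the lowest adjusted p in HBS1L (-0.43), GSPT1 (-0.40) and ETF1 (-0.33), the last 2 encoding release factors, while GSPT2 was at -0.38. Of 11 cap and poly(A) partners 3 were raised and 4 lowered, PABPC1 (-0.30) and DDX3X (-0.25) among the lowered and NCBP2 (0.25) among the raised. Of 11 mitochondrial translation factors 1 was raised (MTRF1, 0.32) and 2 lowered (MTIF3, -0.58, and MTIF2, -0.42), and of 7 genes for hypusine and selenocysteine incorporation 5 were raised and 1 lowered, the raised being SEPSECS (0.62), PSTK (0.35), DOHH (0.32), EEFSEC (0.29) and SECISBP2 (0.25). These values are log2 fold changes from the same edgeR fit.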

How the data were processed

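Poly(A) RNA of 6 LX-2 libraries was sequenced as read pairs, per the labels' protocols, after oligo(dT) capture and random-hexamer priming; groups and replicate numbers came from the sample titles. Named without versions in the submitters' processing notes are HISAT2, featureCounts, Trimmomatic, FastQC and DESeq2, on GRCh38 (hg38). Annotation, strand setting and handling of multiply mapped reads: not given in the sources used here.

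A single gene table was deposited by the authors, whose values are read here as estimated counts, with no normalisation stated: between 12.3 and 13.9% of genes per library carried a fractional value, as did 30 of the 64 members in at least 1 library. Each value was rounded before the count model was fitted. Library totals were 15644464 to 19656533, and no library duplicated another (chi-square per gene 3.63 to 9.5 between replicates).

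Genes kept by filterByExpr (15372) were compared with edgeR 4.0.16 in R 4.3.3: TMM factors (0.949 to 0.958 in control and 1.04 to 1.06 in labelled libraries), a two-sided quasi-likelihood F test with group as its only term, and Benjamini-Hochberg adjustment over all genes tested with a threshold of 0.05. The labels give no batch. CPM is normalised by TMM, ± is the SD over 3 libraries unless SE is named, and intervals of folds are 95% intervals of the fit. Errors cover these libraries only. The steps were tested on simulated data.

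Members with values for each library were, in each group, the 4 with the lowest adjusted p among those past the test, the 2 most abundant per kilobase, and 19 genes fixed by name; other members named, EIF1AX, EIF5B and EIF4H among them, were chosen after their values were seen. The members and lists were chosen with earlier results of these data known. The complexes within a group, the ratios and the searches for start tracts, CACGTG and start contexts were chosen after the members' values were seen. Levels per kilobase use the Ensembl canonical transcript in place of the planned union of exons, which retained introns stretch. Shared sequence is the share of 50-base windows of that transcript found in transcripts of other genes; over 30% was so shared in 13 members, without which 10 were raised and 18 lowered of 50. Promoters came from RefSeq (GRCh38.p14), and coordinates and transcripts from GENCODE release 44 (GRCh38).

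The comparison was repeated with library size alone or DESeq2's size factors as scaling, unfiltered or with at least 5 CPM in 3 libraries, in limma-voom (limma 3.58.1) and DESeq2 1.42.0, on unrounded values, with a replicate block, without each library in turn, and with a per-library trend on gene span taken out as an offset. The same on canonical transcript span, and the count without EIF4EBP3, were added after seeing the data.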

Additional observations from a re-analysis of the deposited data

How the results depend on the processing

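With library size alone 19 members were raised and 13 lowered, the median log2 fold change was 0.01, and the counts raised were 2 for EEF and 5 for EIF2, and those lowered 1 for EIF2, 3 for EIF3 and 1 for the other EIF genes. Gene span trend removal left 1 raised EIF2 gene and 1 raised EIF3 gene, and the canonical transcript span trend left 1 raised EIF3 gene and a median of -0.19. Without EIF4EBP3 10 members were raised. Same-numbered libraries did not deviate together (correlations of deviations -0.0879, -0.0291 and -0.102), so the numbers were not taken as pairs; with the replicate number as a block 11 members were raised and 18 lowered (1 in EIF2 and 4 in EIF3; EEF1AKMT2, EIF2S3, EIF3I, EIF3K and EIF3M lost their calls), and ATP6AP1 stayed raised at 0.25. Leaving out 1 library gave 10 to 12 raised and 17 to 27 lowered members, 0 to 1 raised and 4 to 7 lowered EEF genes, 1 to 2 lowered EIF2 genes, 1 to 2 raised and 4 to 8 lowered EIF3 genes, 1 to 4 lowered other EIF genes, and a median of -0.14 to -0.09.

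The sign turned, for genes not past the test in the main comparison, with library size alone in EEF1AKMT3 (0.01), EEF1D (0.00), EIF1AX (0.02), EIF2B5 (0.11), EIF2D (0.01), EIF3B (0.11), EIF3J (0.04), EIF3L (0.13), EIF4A2 (0.04), EIF4G2 (0.07), EIF4H (0.00) and EIF6 (0.11). It turned with the gene span and the canonical span trend removed in EIF2B3 (0.04 and 0.07), EIF2S1 (-0.08 and -0.08), EIF2S2 (-0.10 and -0.10), EIF4B (-0.07 and -0.07) and EIF4ENIF1 (-0.01 and -0.01), and in EIF4G3, which was past the test (0.11 and 0.16). With 1 library left out the range crossed 0 in EIF2S1 (-0.04 to 0.07), EIF2S2 (-0.06 to 0.05), EIF3B (-0.04 to 0.02), EIF3CL (-0.41 to 0.00), EIF3L (-0.03 to 0.04), EIF4ENIF1 (-0.05 to 0.09) and EIF6 (-0.06 to 0.01). The cause of these changes was not tested. DESeq2's size factors and unrounded values changed no member's call, and the filter of 5 CPM gave no value for 4 low members. EIF4EBP3, EIF2S3B and EIF3CL held at most 2.68 CPM in a library, where few counts limit what can be seen.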
